A study of Bos taurus with 6 samples.

Results

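The microRNA miR-21 was examined in cultured bovine granulosa cells, the somatic cells that line the ovarian follicle and feed the oocyte. The files list 2 products of its hairpin, bta-miR-21-5p and bta-miR-21-3p, and these 2 entries were taken by name from the 1028 bovine miRNAs listed for every library. Cells from small antral follicles of 3 to 6 mm, collected from slaughterhouse ovaries, were cultured for 24 h and then either left at 37 °C as controls or moved to 42 °C for heat stress (HS) over a further 24 h. The 6 small RNA libraries, 3 of each group with replicate numbers 1 to 3, came from cells for which no other treatment is given. The labels do not state whether a replicate number marks cells of the same pool, how many animals were pooled, or the breed and age of the animals. The p-values therefore measure the spread between these cultures or pools. As whole cultures were sequenced, fewer cells of a type and less RNA per cell cannot be told apart.

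A miRNA hairpin is cut into a short duplex of a 5p and a 3p strand. As a rule 1 strand, the guide, is loaded into an Argonaute protein and directs the repression of mRNAs, while the other, the passenger strand, is mostly degraded. miR-21-5p is the guide of the miR-21 hairpin and is known for targets such as PDCD4, an inhibitor of translation that restrains growth. In mouse granulosa cells miR-21 rises after the luteinising hormone surge, and its loss is known to increase apoptosis. miR-21-3p is the passenger strand. RefSeq lists 1 MIR21 gene in the bovine assembly ARS-UCD2.0, and its nearest protein-coding gene is VMP1, which encodes an autophagy protein and which MIR21 does not overlap in that annotation.

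The libraries held 2076239 to 4590971 recovered miRNA reads, called their miRNA depth here, which was lowest in control replicate 1 and highest in HS replicate 3. It counts miRNA reads only and is not the number of reads sequenced, which was not used here. Values are given as TMM-normalised CPM, that is reads per library brought to a common size, where TMM is a scaling by the trimmed mean of M-values. No miRNA was taken as specific for granulosa cells, so the cell label could not be tested against a defining miRNA. Levels are therefore given for miRNAs listed as markers of other cells. Every other miRNA lay below miR-21-5p, so a lower level than its own says nothing about the purity of the cells. bta-miR-155, which is known for its part in immune cells but is not among these markers, was the second most abundant miRNA, at a mean of 117333 CPM. All 3 red blood cell miRNAs (miR-451, miR-486 and miR-144) summed to 12.5 to 52.7 CPM in control and 20.9 to 62.7 in HS libraries, and all 4 white blood cell miRNAs (both arms of miR-142, miR-223 and miR-150) to 700.2 to 843 and 614 to 749. Both arms of miR-126, an endothelial miRNA, summed to 228 to 352 CPM in control and 131 to 265 in HS libraries, and 5 miRNAs of epithelia to 57.1 to 86.5 and 49 to 82.7. The 5 miRNAs of theca and stroma summed to 1324 CPM in control replicate 1 and to 1832 to 2192 in the other libraries. None of these miRNAs was at 0 in every library, and the part of such cells in the level of miR-21 was not tested.

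bta-miR-21-5p was the most abundant miRNA in 6 of 6 libraries. Its level was 144234, 192819 and 203788 CPM in control replicates 1, 2 and 3. The HS libraries, in the same order, had 191537, 165181 and 200262 CPM. The lowest level belonged to control replicate 1, and every HS library lay within the control range. On average the guide stood at 180280 ± 31695 CPM in control cells and 185660 ± 18264 CPM under HS (SD, n = 3 each). These levels rested on 295425 to 940867 reads, so counting error was far below the spread between libraries.

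The share of miR-21-5p in all miRNA reads gave the same picture without any scaling between libraries. It was 14.2%, 19.5% and 20.5% in the control and 18.5%, 16.7% and 20.5% in the HS libraries, in the order of the replicates. The 95% Wilson interval, which covers counting error only, was widest in the library with the fewest miRNA reads, control replicate 1, and there ran from 14.2% to 14.3%. The group means of 18.1% ± 3.37 and 18.5% ± 1.92 (SD, n = 3 each) differed by 0.464 percentage points, which is less than the replicate spread. An exact permutation test of these means, two-sided like all those below, gave p = 0.8, where 0.1 is the smallest p that 3 against 3 libraries allow. Without control replicate 1 the difference was -1.46 points and without HS replicate 3 it was -0.51, so its direction rested on single libraries.

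The lead of miR-21-5p over bta-miR-155, the next most abundant miRNA, varied between libraries. For each read of miR-155 there were 1.04, 1.67 and 1.99 reads of miR-21-5p in the control and 1.45, 1.43 and 1.98 in the HS libraries. Control replicate 1 thus held the 2 miRNAs at nearly the same level, whereas both replicate 3 libraries held close to 2 reads of miR-21-5p for 1 of miR-155. The ratio did not separate the groups (exact permutation test, p = 1). Against bta-let-7a-5p, the third by mean level, the ratio ran from 1.94 to 3.06, and again control replicate 1 was lowest.

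**Figure D1:**
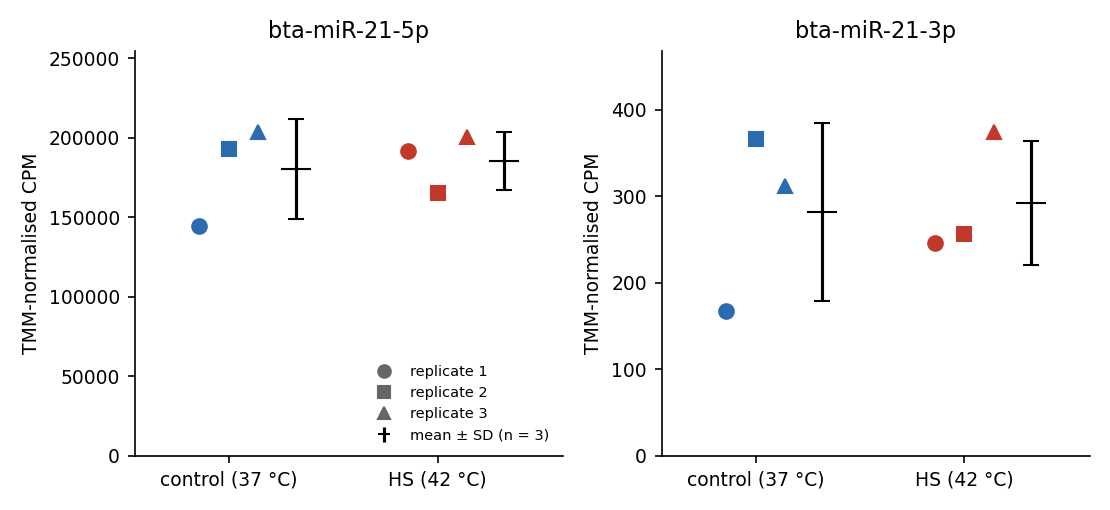
Level of bta-miR-21-5p (left) and bta-miR-21-3p (right) in TMM-normalised CPM on linear axes from 0, for 3 control libraries (blue) and 3 HS libraries (red), with the symbol giving the replicate number and black bars the mean ± SD. Both arms were lowest in control replicate 1, at 144234 and 167 CPM, and the groups overlap in both panels.

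bta-miR-21-3p, the passenger arm, was present in 6 of 6 libraries at a much lower level. It had 167, 366 and 312 CPM in control replicates 1, 2 and 3, whereas HS replicates 1, 2 and 3 had 246, 257 and 375 CPM. As for the guide, control replicate 1 was lowest and the groups overlapped, but the highest library held 2.24 times the level of the lowest, against 1.41 times for the guide. Behind these levels were 343, 1686 and 1119 reads in control and 740, 945 and 1761 reads in HS libraries. The passenger arm ranked 108 to 142 among the miRNAs of a library and took 0.0165% to 0.0384% of its reads. The mean level was 282 ± 103 CPM in control cells and 292 ± 71.6 CPM under HS (SD, n = 3 each).

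Beyond the change with heat, the passenger arm varied more between replicates than most miRNAs. The SD of log2 CPM within groups was 0.482 for miR-21-3p and 0.216 for miR-21-5p, and the median over the 365 tested miRNAs was 0.266. A larger SD than that of miR-21-3p was found for 19.5% of the tested miRNAs, and a larger SD than that of miR-21-5p for 62.7%. Among the 20 miRNAs nearest to miR-21-3p in mean level, at 221 to 363 CPM, the median SD was 0.237 and 6 had a larger one. By group the SD of miR-21-3p was 0.594 in control and 0.334 in HS libraries, and that of miR-21-5p 0.268 and 0.145. The control SDs include control replicate 1, the lowest library for both arms, and SDs without it are not given. These SDs are descriptions and were not tested.

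To compare the arms within a library, reads of miR-21-5p were divided by reads of miR-21-3p, a ratio that does not depend on the scaling between libraries. For each read of the passenger arm there were 861, 526 and 654 reads of the guide in control replicates 1, 2 and 3. For HS replicates 1, 2 and 3 the ratios were 780, 643 and 534. The exact 95% binomial intervals were 775 to 960 in control replicate 1, 502 to 553 in control replicate 2 and 616 to 694 in control replicate 3. The 3 control intervals did not overlap, so libraries of the same group differed by more than counting error. In the HS libraries the intervals were 726 to 840, 603 to 686 and 510 to 560, which did not overlap either. The passenger arm made up 0.116% to 0.19% of the reads of both arms.

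**Figure D2:**
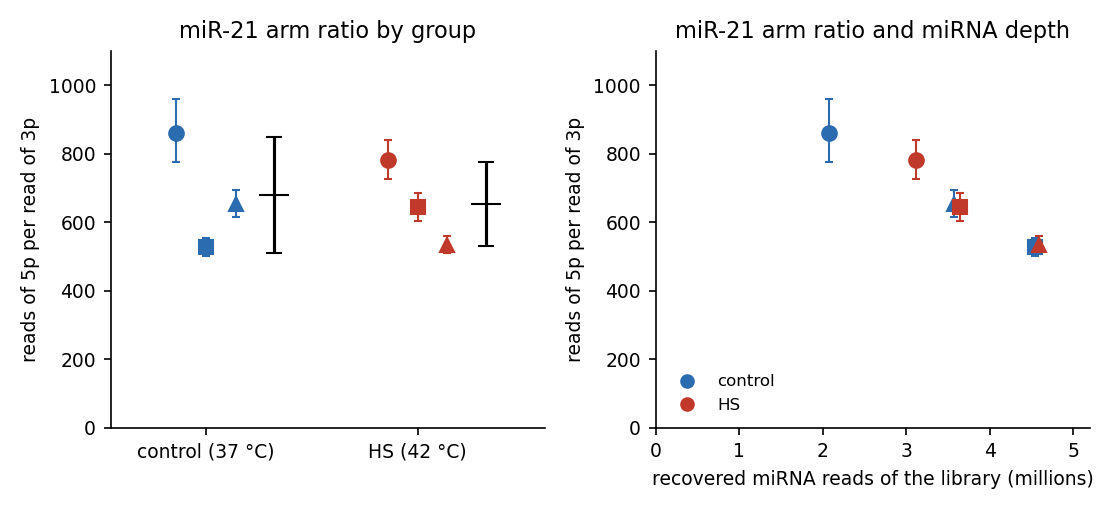
Reads of bta-miR-21-5p per read of bta-miR-21-3p for each library, by group (left) and against the recovered miRNA reads of the library, in units of 1e6 reads (right), on linear axes from 0. Coloured bars are exact 95% binomial intervals and black bars the mean ± SD of 3 libraries. The ratio fell from 861 in the library with the fewest miRNA reads to 526 and 534 in the 2 with the most, and the groups overlap.

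The arm ratio followed the number of miRNA reads of the library, a relation that was examined after the values had been seen. In order of miRNA depth from the lowest, at 2076239 reads, to the highest, at 4590971, the ratios were 861, 780, 654, 643, 526 and 534. Only the last 2 libraries in this order departed from a steady fall. Over the 6 libraries, log2 miRNA depth and the log2 arm ratio correlated at r = -0.953 (exact permutation p = 0.00278) and rho = -0.943 (exact permutation p = 0.0167). Without the libraries with the fewest and the most miRNA reads, the 2 farthest from the median miRNA depth, r was -0.993 (n = 4). Adjusted by the Benjamini-Hochberg method over the 4 relations of miR-21 tested over the 6 libraries, the values were 0.00833 for r and 0.0333 for rho (exact permutation tests). This adjustment does not cover the choice of the relation after its values had been seen.

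The relation was carried by the passenger arm more than by the guide. The CPM of miR-21-3p rose with miRNA depth at r = 0.973 (exact permutation p = 0.00417, adjusted 0.00833) and rho = 0.943 (exact permutation p = 0.0167, adjusted 0.0333), and r was 0.878 without the 2 libraries farthest from the median miRNA depth. A line through the 6 libraries rose by 0.999 log2 units of CPM for each doubling of miRNA depth. Without control replicate 1 the correlation was 0.919 (exact permutation p = 0.075). For miR-21-5p the slope was 0.361 log2 units for each doubling, with r = 0.782 (exact permutation p = 0.0694, adjusted 0.0694) and rho = 0.543 (exact permutation p = 0.297, adjusted 0.297). This weaker relation rested on the libraries with the fewest and the most miRNA reads, since without them r was 0.025.

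Many miRNAs moved with miRNA depth in these 6 libraries, in both directions. Of the 365 tested, 59 (16.2%) had a correlation with log2 miRNA depth of at least 0.8 in size, and the median r was -0.07. bta-miR-21-3p had the highest positive r of all 365, ahead of bta-let-7g at 0.964, and 1 further miRNA had a larger r in size, at -0.991. For miR-21-5p, 10.7% of the tested miRNAs had an r at least as high. Of the lower arms of the other 32 hairpins, 19 had an r above 0, and their median r was 0.119. Over the 33 hairpins with both arms tested, the ratio of the higher to the lower arm had a median r of 0.012, and the r of miR-21 was the lowest. What set the miRNA depth of a library was not examined here, and its part in the arm ratio was not tested.

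The arms themselves moved together over the 6 libraries, with r = 0.864 (exact permutation p = 0.0319, adjusted 0.0426) and rho = 0.771 (exact permutation p = 0.103, adjusted 0.137). The relation rested largely on control replicate 1, where both were lowest. Without it r was 0.575 (exact permutation p = 0.342), and without the 2 libraries farthest from the median of miR-21-5p r was 0.359. Each arm had closer companions than its partner. The arm partner ranked 21 of 364 for miR-21-5p and 22 of 364 for miR-21-3p.

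The miRNAs whose levels followed each arm most closely were sought over the 6 libraries, as a description. For miR-21-5p they were bta-miR-192 (r = 0.991), bta-miR-2336 (r = 0.970) and bta-miR-2285bf (r = 0.969). For miR-21-3p they were bta-miR-29c (r = 0.969), bta-miR-152 (r = 0.968) and bta-miR-27b (r = 0.965). The 3 companions of the passenger arm had correlations with miRNA depth of 0.909, 0.949 and 0.899, and those of the guide 0.825, 0.728 and 0.639, in the same order. All values come from the same 6 libraries and the same scaling.

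The preference for 1 arm was compared between hairpins. Both arms were listed for 82 hairpins and passed the filter on low reads for 33 of them, among which the 5p arm was the higher one in 17. The filter leaves out hairpins whose lower arm had few reads, and these can be strongly one-sided. The median ratio of the higher to the lower arm was 8.09, on CPM with 1 added, while it was 653 for miR-21. Among the 33 this was the second largest ratio after let-7a, where it was 4390. The 3p arm of let-7a had only 23 to 92 reads in a library, against 343 to 1761 for the 3p arm of miR-21. The other hairpins with the most abundant arms had ratios of 111 for miR-23b, where the 3p arm is the higher one, 8.09 for miR-151, again with the 3p arm higher, and 222 for miR-99a. The lower arm of miR-21 itself ranked 4 among the lower arms of the 33 hairpins, at a mean of 287 CPM.

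**Figure D3:**
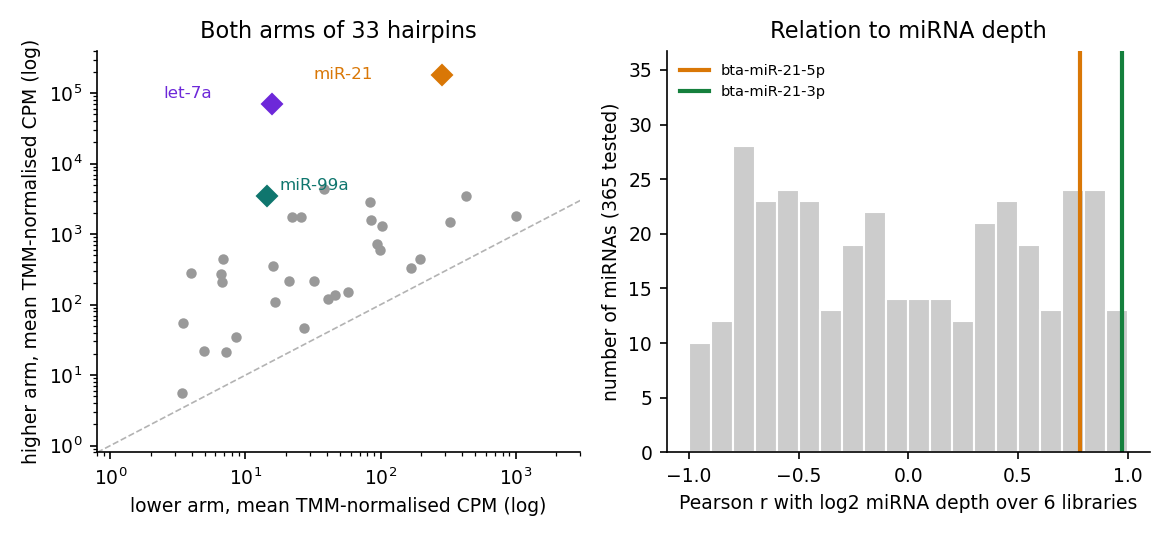
Left, mean level of the higher arm against the lower arm of 33 hairpins, in TMM-normalised CPM on log axes, with the dashed line at equal levels. Right, the number of miRNAs by their Pearson correlation with log2 miRNA depth over 6 libraries, for the 365 tested. miR-21 has the highest level of all, with 182970 against 287 CPM, and bta-miR-21-3p lies at the right end of the distribution, at r = 0.973.

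To determine whether HS changed the level of either arm, all 365 miRNAs that passed the filter were tested with limma on log2(CPM + 1). With an adjusted p up to 0.2 and a log2 fold change of 1 or more in either direction, the threshold of the study, 3.01% of them were called, and neither arm of miR-21 was among these. The direction of these calls depended on the scaling. HS cells had the higher level for 4 of the 11, for 12 of the 18 called with values relative to bta-miR-361, and for 2 of the 11 that upper quartile factors gave. For miR-21-5p the log2 fold change was 0.05 ± 0.145 (SE, limma adjusted p = 0.959, 95% interval -0.29 to 0.40). For miR-21-3p it was 0.10 ± 0.323 (SE, limma adjusted p = 0.959, 95% interval -0.66 to 0.87). At an adjusted p under 0.05, 2.19% of the miRNAs were called, and at 0.2 without a fold change minimum 7.12%, in neither case with an arm of miR-21. For 20% of the tested miRNAs all libraries of 1 group lay above those of the other, and for both arms the groups overlapped.

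The intervals show what these data could tell. That of the guide lay well within 1 log2 unit of 0 on both sides. That of the passenger arm was wider, and changes between its bounds of -0.66 and 0.87 remain compatible with these data and are not shown to be absent. The guide's fold change was smaller in size than that of 84.7% of the tested miRNAs and the passenger's smaller than that of 70.4%.

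The sign of these small differences depended on single libraries. Without control replicate 1 the log2 fold changes were -0.099 for the guide and -0.23 for the passenger arm, and without HS replicate 3 they were -0.0034 and -0.09. None of these fits gave an adjusted p of at most 0.2.

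**Figure D4:**
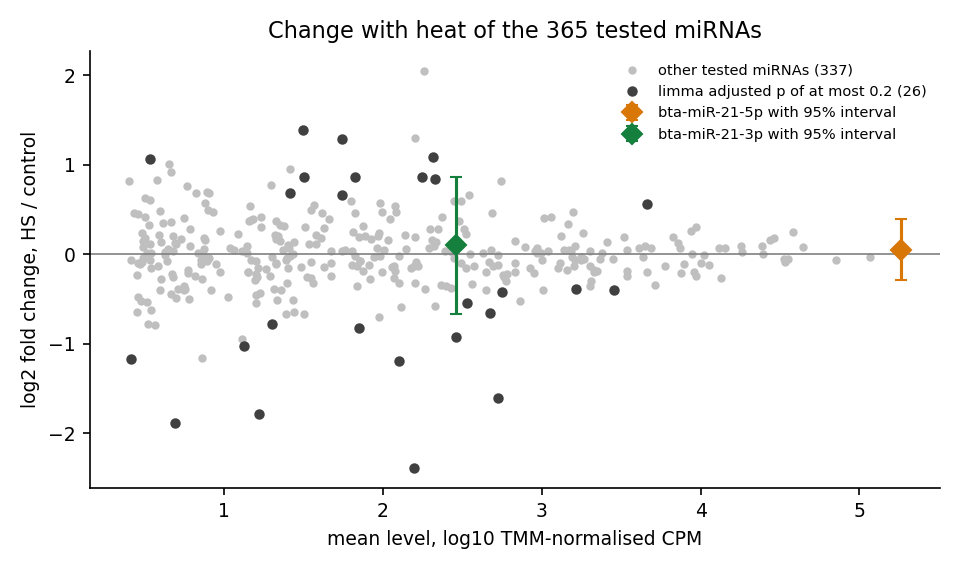
Log2 fold change of HS over control on log2(CPM + 1) against the mean level (log10 TMM-normalised CPM) of 365 miRNAs, with dark points for the 26 that had a limma adjusted p of at most 0.2. The diamonds are bta-miR-21-5p at 0.05 and bta-miR-21-3p at 0.10, with bars for the 95% interval, and both intervals include 0.

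Whether heat shifted the balance between the arms was asked with the log2 arm ratio, fitted with limma over the 33 hairpins. The mean was 9.38 ± 0.354 for control libraries and 9.33 ± 0.272 for HS libraries (SD, n = 3 each). The difference of -0.05 log2 units was within the spread between replicates (SE 0.251, limma adjusted p = 0.947, 95% interval -0.63 to 0.53). By the exact permutation test of the means p was 0.8. Without control replicate 1 the difference was 0.14 and without HS replicate 3 it was 0.087, both of the other sign.

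Few arm ratios were called with heat, and their number rested on single libraries. With an adjusted p up to 0.2 limma called 3.03% of the pairs, that is 1, and at an adjusted p under 0.05 none, while 2 had an unadjusted p under 0.05. The 1 pair was miR-99a, a relative of miR-100, whose log2 ratio of 5p to 3p was lower in HS cells by 0.61 (limma adjusted p = 0.0639). This pair was picked out with its values in view. At an adjusted p up to 0.2, 5 pairs were called without control replicate 1 or with log2 miRNA depth as covariate, and 0 without control replicate 3, HS replicate 2 or HS replicate 3. Groups that do not overlap were found for 12.1% of the pairs, and those of miR-21 overlapped. The difference of miR-21 ranked 29 in size among the 33.

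As the arm ratio and miRNA depth moved together, the heat comparison was repeated with log2 miRNA depth as a covariate, an alternative chosen after the data had been seen. The difference in the log2 arm ratio was then 0.094 with an SE of 0.0799, against 0.251 without the covariate (limma adjusted p = 0.528). For miR-21-3p the log2 fold change was -0.12 with an SE of 0.128 (limma adjusted p = 0.654), and for miR-21-5p it was -0.024 with an SE of 0.103 (limma adjusted p = 0.933). The difference stayed uncalled for both arms and for their ratio.

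Other miRNAs linked to the roles of miR-21 were examined as lists. The 2 miRNAs that rise with luteinising hormone in granulosa cells alongside miR-21 were bta-miR-132, at 992 ± 84.4 CPM in control and 1000.1 CPM on average in HS cells, and bta-miR-212, at 32.8 and 35.6 CPM. Neither was called (limma adjusted p = 0.972 and 0.844, and no call by edgeR or DESeq2), and no unadjusted p was under 0.05. Over all tested miRNAs 14.5% had an unadjusted p under 0.05 and 7.12% an adjusted p up to 0.2, so a list of 2 without a call does not stand apart. As for miR-21, their group means lay close together.

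miRNAs described as favouring apoptosis or growth arrest formed a list of 13, of which 12 passed the filter and bta-miR-34b did not. None was called at an adjusted p of at most 0.2 by limma, edgeR's quasi-likelihood test or DESeq2, and 1 had an unadjusted p under 0.05 in limma, beside the shares of 7.12% and 14.5% over all tested miRNAs. The first share stands for 26 miRNAs, which became 12 without control replicate 3, and 13, 8 and 9 without HS replicates 1, 2 and 3. In limma 8 had a log2 fold change above 0 and 4 below, with a median of 0.073 beside -0.0015 over all tested miRNAs. The 3 most abundant were bta-miR-16b, bta-miR-26b and bta-let-7g, with mean levels of 33334, 7903 and 7244 CPM and log2 fold changes of -0.053, -0.10 and 0.13. The miRNA with the smallest p was bta-miR-34a, a miRNA induced by p53, which had a mean of 1325 CPM in the controls and of 1847 under HS (log2 fold change 0.48 ± 0.187 SE, limma adjusted p = 0.306) and was named after its values were seen.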

How the data were processed

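Small RNA libraries were made by the authors from 100 ng of total RNA with adapters that carry unique molecular identifiers and 16 cycles of PCR. Per the labels and methods, adapters were trimmed with Cutadapt 1.11, reads with the same identifier were collapsed, and reads were mapped with Bowtie2 2.2.2 to the bovine genome UMD3.1 and assigned to miRBase miRNAs. How reads that match several miRNAs were handled is not given in the sources used here. The deposited signal is TMM-normalised CPM, made by the authors with edgeR.

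In every library 100% of the values were whole multiples of 1 step (tolerance 0.01 of a read), and these recovered reads set the miRNA depth, the filter and the arm ratios. A count of 3 reads corresponds to 0.639 to 1.46 CPM. miRNAs that passed edgeR's filterByExpr were tested with limma 3.58.1 (trend) in R 4.3.3 on log2(CPM + 1), with Benjamini-Hochberg adjustment over all of them, and fold changes are on that scale. The log2 arm ratio was fitted in the same way over all hairpins with both arms past the filter. The code of the fits was tried on simulated reads with the same spread setting for every miRNA. This does not show how the fits perform at the spread of miR-21-3p. Single values were compared by exact permutation tests in Python 3.11.15 with scipy 1.17.1. Other tools were edgeR 4.0.16 and DESeq2 1.42.0.

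Replicate numbers run from 1 to 3 in both groups. Deviations from the group means correlated at 0.421, -0.117 and 0.616 for same-numbered libraries, and at -0.643 to 0.292 for differently numbered ones. Numbers 1 and 3 thus lay above all differently numbered pairs and number 2 did not. These values do not settle whether the libraries are paired, and the main fits assume no pairing. The 2 arms and the lists were chosen with earlier results of these data known. The rule for named miRNAs took both arms, the 5 most abundant miRNAs, the hairpins with the most abundant arms, the 3 most correlated miRNAs for each arm, and from each list those called or else the 3 most abundant. One further list of miRNAs is not reported here. Sequences were not used here, and RefSeq coordinates served only to find the neighbour of MIR21. The Wilson and binomial intervals and the floors cover counting error only, whereas the limma intervals rest on the spread between libraries.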

Additional observations from a re-analysis of the deposited data

How the results depend on the processing

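Neither arm was called under any of 15 other settings or 6 omissions of a library. The adjusted p ran from 0.586 to 0.993 for miR-21-5p and from 0.631 to 0.993 for miR-21-3p. The log2 fold changes turned sign with upper quartile factors, to -0.13 and -0.084, which also moved the median of all tested miRNAs to -0.18. Values relative to bta-miR-361 moved that median to 0.17 and gave 0.24 and 0.29, and counts under this scaling, added after seeing the data, rose from 11 to 18 at the first threshold and from 26 to 38 at an adjusted p of at most 0.2. With log2 miRNA depth as covariate the arms were at -0.024 and -0.12, and the arm ratio difference turned to 0.094. Across omissions of a library the ranges were -0.099 to 0.15 for miR-21-5p, -0.23 to 0.33 for miR-21-3p, -0.22 to 0.14 for the arm ratio and -1.46 to 1.67 points for the share. The cause was not tested. With the replicate block the values are the same by construction, with limma adjusted p of 0.897, 0.895 and 0.943 for the arms and their ratio. The block lowered the SE from 0.145 to 0.130 for miR-21-5p and from 0.323 to 0.239 for miR-21-3p. For the arm ratio it went from 0.251 to 0.167. The block gave 10 miRNAs at the first threshold and 6 at an adjusted p under 0.05, against 11 and 8, and the sign-flip test of the 3 differences in share gave 0.464 points (exact p = 0.75).

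The 8 miRNAs at an adjusted p under 0.05 became 5 with upper quartile factors, 20 with DESeq2 and 2 to 12 across omissions. The 26 at an adjusted p of at most 0.2 became 14 with no filter, 61 with the miRNA depth covariate and 8 to 29 across omissions. The 1 arm pair at an adjusted p of at most 0.2 became 5 with the miRNA depth covariate and 0 to 5 across omissions. The pairs at an adjusted p under 0.05 went from 0 to 1 with the stricter filter, 3 with the miRNA depth covariate and 0 to 2 across omissions. The correlation of the arms ran from 0.575 to 0.937 and that of miR-21-3p with miRNA depth from 0.919 to 0.993 across omissions, while that of the arm ratio with miRNA depth kept an exact permutation p of 0.0167 or less. With 3 libraries a group, changes within the intervals given are not shown to be absent.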
